A study of Danio rerio with 6 samples.

Results

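Zebrafish embryos at 24 hours post fertilization (hpf), called T2, were compared with embryos at 10 hpf, called T1, across all genes and, separately, across all long noncoding RNAs (lncRNAs). The comparison uses 4 of the 6 libraries of the series, 2 of each stage, and these were chosen by their stage labels alone. All embryos were wild type (WT) of the AB line, with no mutation, transgene or treatment, so stage was the only labelled difference between the groups. The remaining 2 libraries, T3 at 36 hpf, entered only an alternative fit and are not described. According to the methods of the study, 100 embryos of each stage were split at random into 2 groups, and no source used here says that these came from separate clutches. The p-values below therefore set the difference between the stages against the spread between libraries of a stage. That spread may be purely technical. With 2 libraries against 2, an exact permutation test can give no p below 0.333.

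At 10 hpf the zebrafish gastrula has just closed over the yolk, the head-to-tail axis is set, and the first somites are about to form. Over the next hours the tailbud adds somites in a rhythm set by oscillating *her* genes, the neural tube is divided into regions, and the heart, blood and muscle begin to work. By 24 hpf the embryo twitches, has a beating heart tube and circulating red cells, and its first pigment cells and neurons are present.

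Levels are given in RPKM, the reads of a gene scaled to its exon length and to the reads counted in all genes of the library. Each log2 fold change was taken after adding 0.5 to the RPKM, which makes the change of a low gene look smaller than it was, and is given with its standard error (SE). A feature was called where the limma p-value, adjusted over its whole table by Benjamini-Hochberg, was under 0.05 and the log2 fold change was beyond 1 in either direction. "Rose" and "fell" are used only of called features. The 4 libraries held 43611332 and 45275403 reads in genes at T1 and 48954178 and 48249525 at T2, so that 3 reads on an exon length of 1 kb are worth 0.0613 to 0.0688 RPKM. In whole embryos, fewer cells of a type and less RNA in each cell cannot be told apart.

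Of 25088 genes tested, 3038 (12.1%) rose and 825 (3.29%) fell from T1 to T2. The median log2 fold change over all tested genes was 0.07, and the lower and upper quartiles were −0.30 and 0.52. Rises made up 78.6% of the calls. After quantile normalization, which moved the median of all genes from 0.07 to −0.13, they made up 60.5%, with 2253 genes higher and 1474 lower. At any fold size, 5446 genes (21.7%) were higher and 3188 (12.7%) lower at adjusted p under 0.05. The log2 fold change was above 0 in 55% of genes. Both T2 libraries lay above both T1 libraries in 10167 genes (40.5%) and below them in 7881 (31.4%). Stages that do not overlap were thus common among all genes. The number of calls depended on the T2 libraries. Without T2 replicate 1 or without T2 replicate 2, no gene passed the adjusted p, while 3028 and 2836 genes were higher and 894 and 722 lower at unadjusted p under 0.05 with the same fold threshold. These 3922 and 3558 genes held 91.3% and 87.5% of the original calls in the same direction.

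Differences between the 2 T1 libraries ran along the stage axis. T1 replicate 1 was above T1 replicate 2 in 74.3% of the 3038 genes that rose, by a median of 0.23 on the log2 scale, and in 28.5% of the 825 that fell, by a median of −0.24. Among the 21225 genes without a call the share was 56.2% and the median 0.04. The SD of the difference between the libraries of a stage was 0.44 at T1 and 0.23 at T2. The part of this difference in the results was not tested. Without T1 replicate 1, 3616 genes were called higher and 1244 lower.

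Markers of 8 cell types are given as a description, and of all genes 12.1% rose and 3.29% fell. Many of these markers are also members of the lists below, which were chosen with earlier results of these data known. Their directions are therefore no independent check of the stage labels. All 6 gastrula and tailbud markers fell, and their summed level was 80.6 and 96.5 RPKM at T1 and 15.3 and 12.5 at T2. All 4 markers of differentiated muscle, 3 of neurons, 3 of red cells, 2 of pigment cells and 2 of the hatching gland rose. Of the 3 lens markers 2 rose, and the lens water channel *mipa* stayed between 0.45 and 0.791 RPKM in all 4 libraries. The 4 oocyte and germ plasm markers were not called, with log2 fold changes of −1.25 (*ddx4*) to −0.21 (*dazl*), and their summed level was 3.77 and 8.17 RPKM at T1 and 1.75 and 2.21 at T2.

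**Figure D1:**
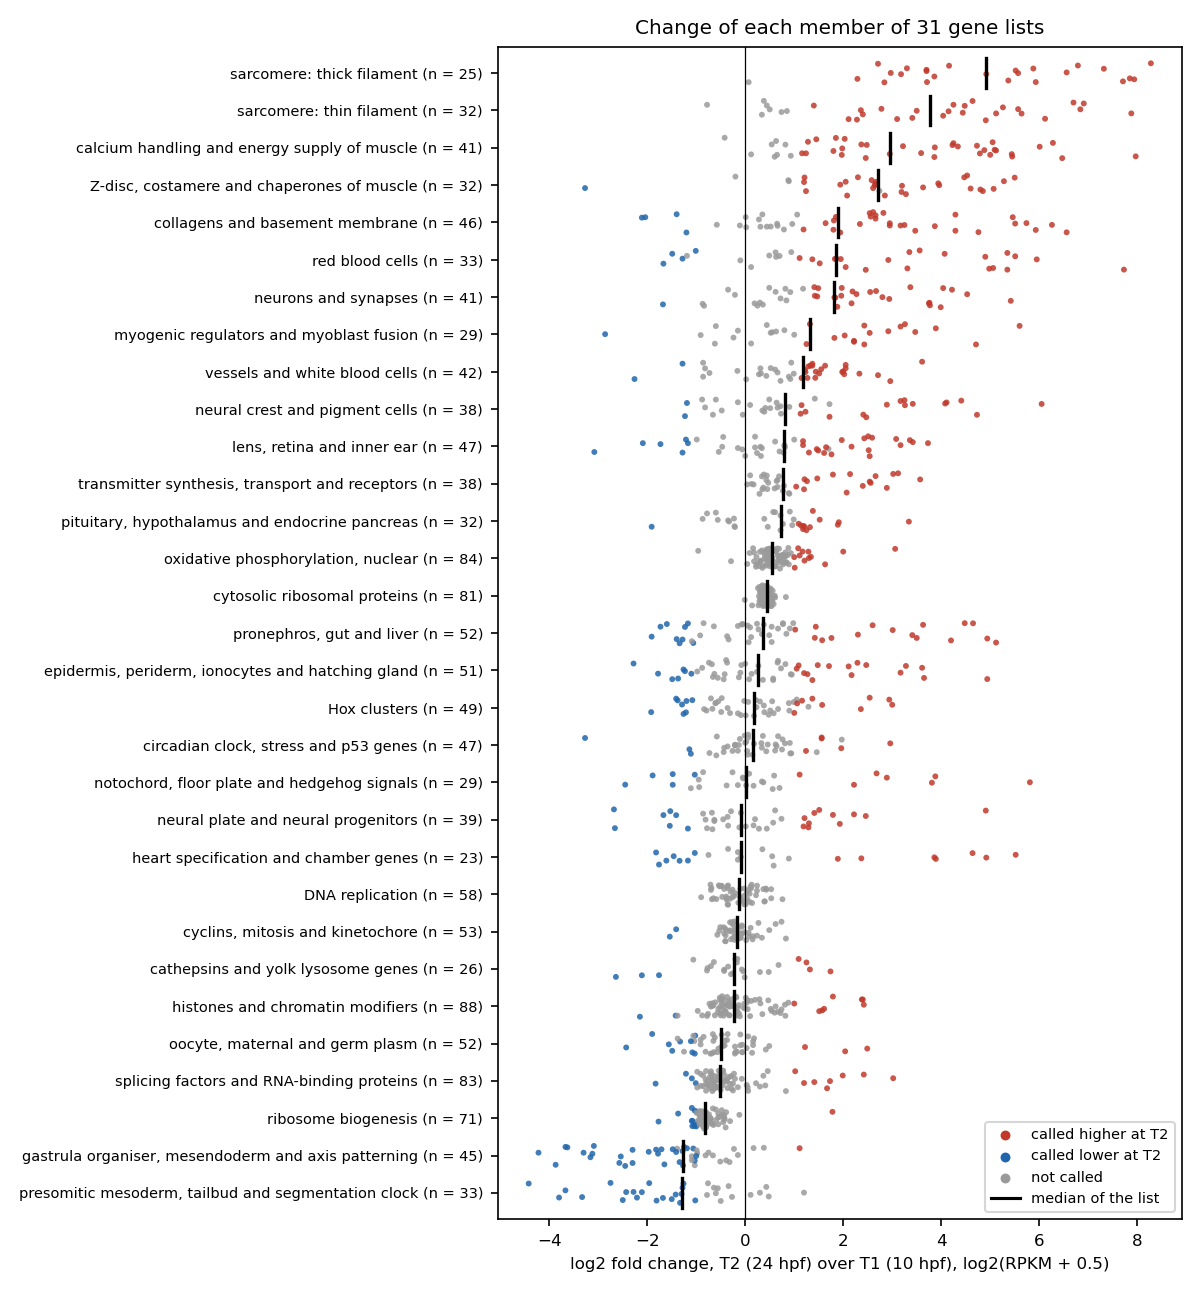
Log2 fold change of T2 over T1 for every tested member of 31 gene lists (x axis, log2(RPKM + 0.5) scale). Each point is a gene, red where called higher, blue where called lower and grey where not called, and the black bars are list medians. The 4 sarcomere and muscle energy lists stand on the right with medians of 2.71 to 4.92, and the gastrula and presomitic lists on the left with −1.28 and −1.30.

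More genes that pattern the gastrula fell than rose. Of 45 tested genes of the organiser, mesendoderm and axis, 28 fell, 1 rose and 16 were not called, where 3.29% and 12.1% of all genes did, with a median log2 fold change of −1.28. The gene *chd* encodes chordin, the organiser's antagonist of BMP, and its level was 22.2 and 45.5 RPKM at T1 and 1.29 and 1.17 at T2, a log2 fold change of −4.22 (SE 0.35, limma adjusted *p* = 0.00269). Genes of the opposite, ventral side were among the falls as well. Sizzled (*szl*), a secreted feedback inhibitor in BMP signalling, was at 5.27 and 5.2 RPKM at T1 and at 0.0548 and 0.111 at T2. The ventral repressor *vox* went from 43.2 and 56.7 to 5.3 and 5.22 RPKM, a log2 fold change of −3.12 (SE 0.16, limma adjusted *p* = 0.00102), and *ved* from 75.2 and 117 to 7.67 and 6.62. In each of these genes both T1 libraries lay above both T2 libraries, as they did in 31.4% of all tested genes. The posterior ligand *wnt8a* fell from 7.5 and 11.4 to 0.289 and 0.246 RPKM. The only riser was the Nodal antagonist *lft2*, at 0.178 and 0.687 RPKM at T1 and 1.3 and 1.58 at T2 (log2 fold change 1.11, SE 0.31, limma adjusted *p* = 0.0479). It lost its call without T1 replicate 1 (log2 fold change 0.71), after quantile normalization (0.76) and with a pseudocount of 1 (0.79). The call of *lft2* was also lost with a pseudocount of 0.1 (limma adjusted *p* = 0.0701), with no filter on low values (0.0619) and with median centring (0.052).

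The caudal factors *cdx1a* and *cdx4*, which direct posterior identity, were among the largest falls of the whole table. *cdx1a* was at 10.5 and 17 RPKM at T1 and at 0.166 and 0.131 at T2, a log2 fold change of −4.42 (SE 0.26, limma adjusted *p* = 0.00136), and *cdx4* went from 90 and 134 to 7.83 and 6.36. Another such fall was *nr6a1a*, an orphan nuclear receptor, from 54.3 and 94.2 to 5.9 and 5.31 RPKM (log2 fold change −3.56, SE 0.27, limma adjusted *p* = 0.00234).

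Tailbud and segmentation clock genes were called in the falling direction alone. Of 33 tested genes of the presomitic mesoderm, tailbud and clock, 20 fell (60.6%) and 0 rose by the limma calls. Of all genes 3.29% fell and 12.1% rose. The median of these 33 was −1.30. Of the same genes, 4 were higher at unadjusted p under 0.05 at any fold, and limma voom on recovered reads called 0 higher and 21 lower. The paraxial mesoderm factor *msgn1* was at 35.2 and 37.4 RPKM at T1 and 2.94 and 1.51 at T2 (log2 fold change −3.80, SE 0.27, limma adjusted *p* = 0.00196). The T-box genes that act with it followed, *tbx16* from 11.1 and 15.4 to 1.16 and 1.03 RPKM and *tbx6* from 31.9 and 42.2 to 6.93 and 5.35. The oscillator *her7* fell from 18.6 and 22.4 to 2.04 and 1.21 RPKM and *her1* from 7.02 and 8 to 1.39 and 1.31, with no overlap between the stages. The notochord and tailbud gene *ta* (Brachyury) had one of the smaller called falls, from 22.9 and 27.2 to 9.26 and 8.08 RPKM (log2 fold change −1.48).

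**Figure D2:**
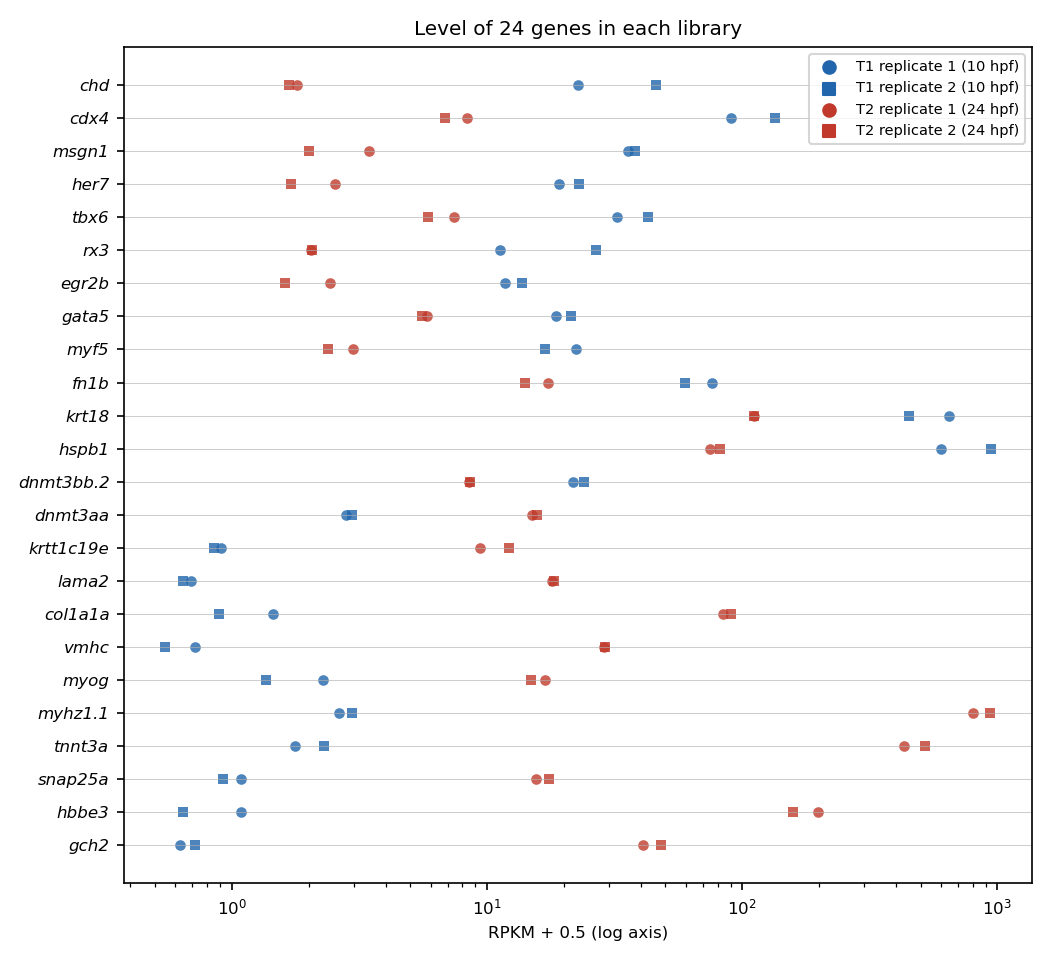
RPKM + 0.5 (log axis) of 24 genes in each of the 4 libraries, T1 in blue and T2 in red, replicate 1 as circles and replicate 2 as squares. For every gene drawn the 2 stages do not overlap, from *chd* (22.2 and 45.5 RPKM at T1) to *gch2* (40.4 and 47.4 RPKM at T2). Over all tested genes, both T2 libraries lay above both T1 libraries in 40.5% and below them in 31.4%.

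Muscle genes held many of the largest rises. Of all genes 12.1% rose and 3.29% fell. Among 29 regulators of myogenesis and myoblast fusion, 16 rose and 1 fell (2 without T1 replicate 1). The faller was *myf5*, the first myogenic factor to be switched on in the somite, at 21.7 and 16.3 RPKM at T1 and 2.49 and 1.88 at T2 (log2 fold change −2.86, SE 0.20, limma adjusted *p* = 0.00197). Its partner *myod1* was not called, at 6.46 and 3.08 RPKM at T1 and 6.35 and 7.26 at T2. The later acting *myog* rose from 1.78 and 0.86 to 16.4 and 14.4 RPKM (log2 fold change 3.17), and *mef2ca*, an activator of contractile genes, from 3.42 and 1.21 to 36.8 and 39. For *myod1* alone among these the stages overlapped.

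The shares of all genes are again 12.1% rising and 3.29% falling. Of 25 tested thick filament genes 24 rose and 0 fell, and of 32 thin filament genes 25 rose and 0 fell. Of 41 genes of calcium handling and energy supply 33 rose and 0 fell. Voom on recovered reads also called 0 of each lower, and at unadjusted p under 0.05 at any fold 0, 1 and 1 were lower. Their median log2 fold changes were 4.92, 3.77 and 2.95. The fast myosin heavy chain *myhz1.1* went from 2.13 and 2.44 RPKM at T1 to 804 and 931 at T2 (log2 fold change 8.28, SE 0.13, limma adjusted *p* = 0.000135). The fast troponin T *tnnt3a* rose from 1.26 and 1.79 to 430.2 and 522 RPKM and the sarcoplasmic calcium pump *atp2a1* from 1.34 and 1.39 to 419 and 518. Thick filament genes took 0.338% and 0.219% of all reads in genes at T1 and 3.32% and 3.66% at T2. Reads of close copies such as the myosin heavy chains may have been split between them, so values of single copies are uncertain. The same holds for globins, crystallins and hatching enzymes below.

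Of 32 genes of the Z-disc, costamere and muscle chaperones, 27 rose (84.4%) and 1 fell (3.12%), beside 12.1% and 3.29% of all genes. The faller was the small heat shock protein *hspb1*, the most abundant transcript of its list at T1, with 598 and 941 RPKM against 74 and 81 at T2 (log2 fold change −3.27, SE 0.23, limma adjusted *p* = 0.00195). The chaperone-linked methyltransferase *smyd1a* went the other way, from 0.147 and 0.326 to 7.19 and 8.08 RPKM.

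Heart genes moved in both directions. Of 23 tested, 7 rose (30.4%) and 7 fell (30.4%), beside 12.1% and 3.29% of all genes, and the median was −0.09. Among the falls were 5 transcription factors and the matrix genes *vcana* and *has2*. *gata5* went from 18.1 and 20.9 RPKM to 5.29 and 5.03 (log2 fold change −1.82, SE 0.13, limma adjusted *p* = 0.00195), *gata4* from 16.8 and 15.5 to 4.92 and 4.97, and *nkx2.7* from 9.89 and 11.7 to 3.02 and 2.61. *hand2*, needed for the cardiac field, passed narrowly with a log2 fold change of −1.03. Among the rises were contractile genes of the chambers. The ventricular myosin *vmhc* was at 0.218 and 0.0479 RPKM at T1 and 28.3 and 28.4 at T2 (log2 fold change 5.52, SE 0.18, limma adjusted *p* = 0.000471), and the regulatory light chain *myl7* went from 0.0894 and 0.129 to 17.7 and 18.1. Cardiac troponin T (*tnnt2a*) started higher, at 3.18 and 0.387 RPKM at T1, and reached 43.4 and 45.6 at T2. Transcription factors were found outside the falls too, with *tbx5a* and *mef2ca* rising (log2 fold changes 1.89 and 3.89) and *nkx2.5*, *isl1*, *tbx20* and *tbx2b* not called, nor was the chamber gene *nppa* (0.55, SE 0.21). The GATA factors also act in endoderm and blood, and in whole embryos their transcripts cannot be assigned to the heart.

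Neural genes likewise moved in both directions. Among 39 genes of the neural plate and neural progenitors, 11 rose (28.2%) and 7 fell (17.9%), beside 12.1% and 3.29% of all genes. Their median was −0.09. The falls included regional genes of the hindbrain and midbrain. *egr2b*, which marks rhombomeres 3 and 5, was at 11.3 and 13.2 RPKM at T1 and 1.93 and 1.12 at T2 (log2 fold change −2.68, SE 0.23, limma adjusted *p* = 0.00307), and the Iroquois gene *irx7* at 146 and 211 against 30.4 and 24.7. *mafba*, *gbx2* and *pax2a* fell with log2 fold changes of −1.53, −1.41 and −1.17. The rises included genes of radial glia, *gfap* from 11.6 and 6.5 to 50.3 and 49.5 RPKM and *fabp7a* from 0.867 and 0.128 to 24.4 and 30.7. The general progenitor factors *sox2* (34.4 and 41.1 RPKM at T1, 36.7 and 32.3 at T2) and *sox3* (62.8 and 54.9, then 69.1 and 65.9) were not called, with log2 fold changes of −0.12 (SE 0.14) and 0.20 (SE 0.11).

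Of 41 genes of neurons and synapses 25 rose (61%) and 1 fell (2.44%), beside 12.1% and 3.29% of all genes. Their median was 1.82. The membrane fusion protein *snap25a* went from 0.58 and 0.421 RPKM to 15.1 and 16.9 (log2 fold change 4.04, SE 0.16, limma adjusted *p* = 0.000686). *gap43*, a protein of growing axons, rose from 5.62 and 4.6 to 99.1 and 109 RPKM. Of 38 genes of transmitter synthesis, transport and receptors 16 rose and 0 fell by limma, voom called 26 higher and 0 lower, and 0 were lower at unadjusted p under 0.05. All 38 log2 fold changes were above 0, beside 55% of all genes, and their median was 0.78. A gene under 0.1 RPKM in both T1 libraries was tested only where both T2 libraries reached 0.1. Such a gene can only be higher, so the filter fixed part of this sign count and of the lack of lower genes. The same holds for every list with such members. The leading members belong to the nerve-muscle synapse. The embryonic acetylcholine receptor subunit *chrng* went from 1.26 and 0.342 to 15.8 and 12.4 RPKM (log2 fold change 3.57), the receptor anchor *rapsn* from 0.713 and 0.258 to 7.44 and 8.25, and the acetylcholine loader of synaptic vesicles, *slc18a3a*, from 0.0572 and 0 to 3.56 and 3.28. The enzymes of GABA synthesis stayed low, *gad1b* at 1.04 and 0.995 RPKM and *gad2* at 0.878 and 0.637 at T2, and both lost their call after quantile normalization (log2 fold changes 0.88 and 0.93).

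In the lens, retina and inner ear list 20 of 47 genes rose (42.6%) and 6 fell (12.8%), beside 12.1% and 3.29% of all genes. The falls held genes of the early eye field. *rx3*, needed to form the optic vesicles, was at 10.7 and 26.3 RPKM at T1 and 1.54 and 1.56 at T2 (log2 fold change −3.08, SE 0.42, limma adjusted *p* = 0.00812). *six3b* fell from 11 and 17.6 to 5.66 and 5.24 RPKM, a log2 fold change of −1.28 that was −0.95 without T1 replicate 2. The crystallin *crybb1l1* rose from 0.308 and 0.573 to 9.52 and 14.6 RPKM. The otolith matrix gene *stm* (starmaker) fell from 188 and 327 to 56.9 and 58.8 RPKM (log2 fold change −2.09), and its T1 libraries differed from each other by more than the T2 libraries did. Of 32 genes of the pituitary, hypothalamus and endocrine pancreas 12 rose, most from levels near the floor, and 1 fell (2 without T1 replicate 1). The granin *scg2b*, a protein of hormone granules, went from 0.107 and 0.0599 to 5.06 and 5.74 RPKM (log2 fold change 3.34). Insulin (*ins*) was at 0.049 and 0 RPKM at T1 and at 1.09 and 0.664 at T2, and hypocretin (*hcrt*) was listed at 0 in both T1 libraries and at 0.524 and 0.797 RPKM at T2, and it lost its call after quantile normalization.

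Of 33 red cell genes 21 rose (63.6%) and 4 fell (12.1%), where 12.1% of all genes rose and 3.29% fell. The embryonic globin *hbbe3* went from 0.587 and 0.141 RPKM to 197 and 158 (log2 fold change 7.73, SE 0.28, limma adjusted *p* = 0.000599), the membrane skeleton gene *sptb* from 0.32 and 0.376 to 28.3 and 27.2, and the heme synthesis enzyme *alas2* from 0.166 and 0.187 to 2.34 and 1.91. The Krüppel-like factor *klf17*, active in early blood precursors, fell from 16.1 and 19.9 to 6.7 and 5.43 RPKM. Lists share some members, and the fall of *klf17* is counted again in the epidermis and hatching gland list and in the maternal list. The regulators at the head of the lineage were not called. *gata1a* was at 0.725 and 0.226 RPKM at T1 and 1.09 and 0.83 at T2, and for *tal1* and *lmo2* the T1 libraries differed by more than 2-fold (6.84 and 2.47, and 14.8 and 4.33 RPKM). Of 42 genes of vessels and white cells 22 rose (52.4%) and 2 fell (4.76%). The endothelial cadherin *cdh5* rose from 0.361 and 0 to 7.39 and 7.65 RPKM. The falls were the VEGF receptor *kdr*, from 11.1 and 10.9 to 4.35 and 4.09, and the leukocyte actin bundler *lcp1*, from 93 and 34.1 to 11.9 and 10.9. The T1 libraries of *lcp1* lay more than 2-fold apart.

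Neural crest and pigment genes held 16 rises (42.1%) and 2 falls (5.26%) among 38, beside 12.1% and 3.29% of all genes. Pigment genes led the rises. *gch2*, which starts pteridine synthesis in yellow pigment cells, was at 0.125 and 0.217 RPKM at T1 and 40.4 and 47.4 at T2 (log2 fold change 6.05, SE 0.16, limma adjusted *p* = 0.000313). The melanin genes *tyr* (0.44 and 0.25 to 12.1 and 15.5 RPKM) and *dct* (0 and 0.0946 to 7.68 and 10.3) and their regulator *mitfa* (0.0704 and 0.52 to 8.06 and 7.28) rose with no overlap. Factors that induce the crest went the other way or were not called. *tfap2a* fell from 27 and 35.8 to 14.2 and 12.7 RPKM, though its log2 fold change was −0.99 without T1 replicate 2, and *snai1b* fell from 22.1 and 18.9 to 8.71 and 8.16. *sox10* and *foxd3* were not called, with log2 fold changes of −0.15 (SE 0.22) and −0.66 (SE 0.16).

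Most matrix genes rose. Of 46 tested collagens and basement membrane genes 28 rose (60.9%) and 4 fell (8.7%), beside 12.1% and 3.29% of all genes. Their median was 1.90. The falls were both fibronectins, the nidogen *nid1b* and the collagen *col15a1b*. T1 replicate 1 was above T1 replicate 2 in 40 of the 46, by a median of 0.40. The fibrillar collagen *col1a1a* went from 0.945 and 0.392 RPKM to 83.3 and 89.6 (log2 fold change 6.26, SE 0.25, limma adjusted *p* = 0.000711). Laminin chains, some of them counted with the notochord genes, went opposite ways. The muscle laminin chain *lama2* rose from 0.191 and 0.145 to 17.5 and 17.7 RPKM (log2 fold change 4.76, SE 0.14) and the vascular chain *lama4* from 1.28 and 0.934 to 8.84 and 8.7. The early embryonic chain *lama1* fell from 104 and 146 to 35 and 31 RPKM (log2 fold change −1.89, SE 0.19, limma adjusted *p* = 0.00418). *lamb1a* fell from 83.7 and 126 to 38.7 and 34.5. The shared *lamc1* chain was at 173 and 208 RPKM at T1 and 99.5 and 97.8 at T2, a log2 fold change of −0.94 (SE 0.12), just inside the fold threshold. The fibronectins, whose products assemble around forming somites and the heart field, fell in both copies, *fn1a* from 27.6 and 49.7 to 9.08 and 8.24 RPKM and *fn1b* from 75.8 and 59.3 to 16.8 and 13.6.

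Of 29 genes of the notochord, floor plate and Hedgehog signals 7 rose (24.1%) and 5 fell (17.2%), beside 12.1% and 3.29% of all genes. Their median was 0.02. *noto*, which gives early axial cells their notochord fate, fell from 3.66 and 6.63 to 0.514 and 0.478 RPKM (log2 fold change −2.45). The rises included *cavin1b*, a gene of the notochord's vacuolated cells, from 2.18 and 0.691 to 91.2 and 109 RPKM and the sheath collagen *col9a1b*, from 5.88 and 5.53 to 89.8 and 83.4. *shha*, the axial Hedgehog ligand, differed by less than its spread, at 8.68 and 7.97 RPKM at T1 and 7.98 and 8.15 at T2 (log2 fold change −0.04, SE 0.12).

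Keratins of the skin moved in both directions. Of 51 genes of the epidermis, periderm, ionocytes and hatching gland 16 rose (31.4%) and 7 fell (13.7%), beside 12.1% and 3.29% of all genes. The simple keratin *krt18* was at 648 and 449 RPKM at T1 and 111 and 110.3 at T2 (log2 fold change −2.28, SE 0.19, limma adjusted *p* = 0.00277), and its partner *krt8* at 533 and 349 against 202 and 201, a log2 fold change of −1.10 that was −0.79 without T1 replicate 1. *krt96* and *krt97* fell too, *krt4* and *krt5* were not called (log2 fold changes 0.82 and −0.63), and *cyt1*, an abundant keratin of the enveloping layer, rose from 1239 and 648 to 2081 and 2038 RPKM. The call of *cyt1* was lost without T1 replicate 2 (log2 fold change 0.73), with no filter on low values (limma adjusted *p* = 0.0534) and with the limma prior fitted without trend and robust estimation (0.0505). The basal keratin *krtt1c19e* rose from 0.407 and 0.35 to 8.89 and 11.7 RPKM (log2 fold change 3.61). Hatching enzyme *he1a* rose from 16.5 and 5.79 to 39.1 and 49.5, so it was already present at T1. Epiplakin (*eppk1*), a cytoskeletal linker of epithelia outside this list, fell from 73.8 and 68.5 to 7.69 and 8.94 RPKM (log2 fold change −3.03). Of 52 genes of the pronephros, gut and liver 16 rose (30.8%) and 9 fell (17.3%), beside the same shares of all genes. Early kidney and endoderm factors were among the falls, *hnf1ba* from 7.55 and 12.6 to 2.28 and 2.19 RPKM and *pax8* from 7.47 and 15.9 to 3.14 and 2.78. The sodium pump subunit *atp1a1a.4* rose from 0.874 and 0.424 to 32.6 and 35.5 RPKM, the fibrinogen chain *fga* from 1.32 and 0.611 to 29.7 and 32.9, and the apolipoprotein *apoea* from 2.82 and 0.975 to 78.4 and 74.5 (log2 fold change 5.12).

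Of 52 tested maternal and germ plasm genes 9 fell (17.3%) and 3 rose (5.77%), beside 3.29% and 12.1% of all genes. Their median was −0.49. Without T1 replicate 1 the count of falls was 16, and without T2 replicate 2, 5 were lower at unadjusted p under 0.05. The egg chromatin protein gene *npm2b* went from 23.6 and 40.4 RPKM to 5.7 and 4.95 (log2 fold change −2.43, SE 0.27, limma adjusted *p* = 0.00515), and the pluripotency factor *pou5f3* from 4.33 and 6.52 to 1.11 and 1.01. *eomesa*, known as a maternal T-box factor and later as a gene of the forebrain, rose from 0.0926 and 0.0892 to 2.83 and 2.79 RPKM (log2 fold change 2.49).

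No gene of DNA replication passed both thresholds. Of 58 tested by limma 0 were called, and voom called 0 higher and 1 lower. At unadjusted p under 0.05 and any fold 5 were higher and 19 lower. At adjusted p under 0.05 and any fold 3 were higher and 10 lower, beside 21.7% and 12.7% of all genes. *pcna*, the clamp of the replication fork, was at 334 and 298 RPKM at T1 and 322 and 326 at T2 (log2 fold change 0.04, SE 0.10). Of 53 genes of cyclins, mitosis and the kinetochore 2 fell (3.77%) and 0 rose by limma, beside 3.29% and 12.1% of all genes. At unadjusted p under 0.05 and any fold 4 were higher and 14 lower, and voom called 1 higher and 2 lower. At adjusted p under 0.05 and any fold 2 were higher and 7 lower, beside the 21.7% and 12.7% of all genes. The 2 falls by limma were the G1/S cyclin *ccne1*, from 8.05 and 6.99 to 2.52 and 2.5 RPKM, and the cell cycle inhibitor *cdkn1cb*, from 15.2 and 23.1 to 6.88 and 5.42.

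The medians of ribosome assembly genes and of ribosomal proteins lay on opposite sides of 0. Over all tested genes 55% had a log2 fold change above 0. Of 71 ribosome biogenesis genes 70 had a log2 fold change below 0, with a median of −0.82. At any fold size 66 were lower and 1 higher at adjusted p under 0.05, beside 12.7% lower and 21.7% higher of all genes. With the fold threshold 10 fell, among them nucleolin (*ncl*), from 2161 and 2429 RPKM to 1121 and 1031 (log2 fold change −1.09, SE 0.11, limma adjusted *p* = 0.00408). Without T2 replicate 2, 6 were lower at unadjusted p under 0.05. The box C/D proteins *fbl* and *nop56* stayed inside the threshold, with log2 fold changes of −0.84 (SE 0.09) and −0.77 (SE 0.09). Of 81 cytosolic ribosomal protein genes 80 had a log2 fold change above 0, with a median of 0.44 and none beyond the threshold by limma or by voom. At any fold size 52 of them were higher and 0 lower at adjusted p under 0.05, and 70 higher and 0 lower at unadjusted p under 0.05. They took 2.72% and 2.42% of reads in genes at T1 and 3.54% and 3.45% at T2, while ribosome biogenesis genes took 2.62% and 2.76% and then 1.48% and 1.38%. After quantile normalization and median centring the medians were −0.78 and −0.82 for biogenesis and 0.44 and 0.44 for ribosomal proteins. Within that list the Myc family split, with *mych* falling from 57 and 73.2 to 20.9 and 16.5 RPKM and *myca* rising from 7.34 and 2.86 to 16.9 and 17.3.

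Of 84 nuclear genes of oxidative phosphorylation 82 had a log2 fold change above 0, beside 55% of all genes, with a median of 0.55. Voom called 11 higher and 1 lower, and 2 were lower at unadjusted p under 0.05 at any fold. By limma 12 rose (14.3%, beside 12.1% of all genes) and 0 fell. Without T1 replicate 1 the count was 18 and without T1 replicate 2 it was 6. The mitochondrial genome itself gave 3.72% and 3.38% of T1 reads and 2.79% and 2.86% of T2 reads.

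Among 83 splicing factors and RNA-binding proteins 66 had a log2 fold change below 0, where 55% of all genes had one above 0. Of the 83, 8 rose (9.64%) and 4 fell (4.82%), beside 12.1% and 3.29% of all genes. Without T1 replicate 1 the falls were 7. The cold-inducible *cirbpb* fell from 986 and 991 RPKM to 421 and 430.4 (log2 fold change −1.21, SE 0.09, limma adjusted *p* = 0.00204), and *hnrnpabb* from 953 and 1000.1 to 467 and 453. The muscle splicing regulator *rbfox1l* rose from 21 and 12.9 to 138 and 136 RPKM (log2 fold change 3.02). Of 88 histone and chromatin genes 8 rose (9.09%) and 2 fell (2.27%), shares below the 12.1% and 3.29% of all genes. The falls, 4 without T1 replicate 1, held the DNA methyltransferase *dnmt3bb.2*, from 21.2 and 23.5 to 7.99 and 8.04 RPKM, and the macroH2A gene *h2afy*, from 3.46 and 8.96 to 0.889 and 0.877. Its relative *dnmt3aa* rose from 2.29 and 2.44 to 14.5 and 15.2 RPKM (log2 fold change 2.42, SE 0.12, limma adjusted *p* = 0.00102).

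Most Hox rises lay in paralog groups 12 and 13 and most falls in groups 5 to 10, a difference that was not tested. Hox genes give body segments their identity, and groups with low numbers act toward the head and those with high numbers toward the tail. Of 49 tested 9 rose (18.4%) and 8 fell (16.3%), beside 12.1% and 3.29% of all genes. At the shares of all genes, groups of 14 or 21 genes would hold few calls. In groups 1 to 4, 2 of 14 rose and 2 fell. In groups 5 to 10, 0 of 21 rose and 6 fell by limma and by voom, with a median of −0.55 and 6 log2 fold changes above 0, of which 3 were at unadjusted p under 0.05. In groups 11 to 13, 7 of 14 rose and 0 fell by limma, 9 and 0 by voom, with a median of 1.11. Of these 14 log2 fold changes 13 were above 0, and 0 were below it at unadjusted p under 0.05. All 7 rises by limma lay in groups 12 and 13, and of 5 genes of group 11 0 rose. In group 10, 1 of 4 genes fell by limma and 3 log2 fold changes were above 0. The trunk gene *hoxb7a* was at 26.6 and 30.6 RPKM at T1 and 7.43 and 6.95 at T2 (log2 fold change −1.92, SE 0.12, limma adjusted *p* = 0.00168), and *hoxa9a* fell from 14.3 and 16 to 5.72 and 5.25. The tail gene *hoxc12a* went from 0.198 and 0.239 RPKM to 5.29 and 5.19 (log2 fold change 3.0, SE 0.16, limma adjusted *p* = 0.00102), *hoxc13a* from 0.0789 and 0.019 to 4.06 and 3.41, and *hoxa13a* from 0.138 and 0.0531 to 3.19 and 2.72. Within group 1, *hoxc1a* rose (6.63 and 5.22 to 16.5 and 15.5 RPKM) and *hoxb1b* fell (10.7 and 13.9 to 4.67 and 3.94). *hoxb1a* also fell, but its log2 fold change was −0.85 without T1 replicate 2, and the rise of *hoxa1a* was 0.81 without T1 replicate 1 and 0.63 after quantile normalization. The median over all 49 was 0.18, and −0.05 after quantile normalization.

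**Figure D3:**
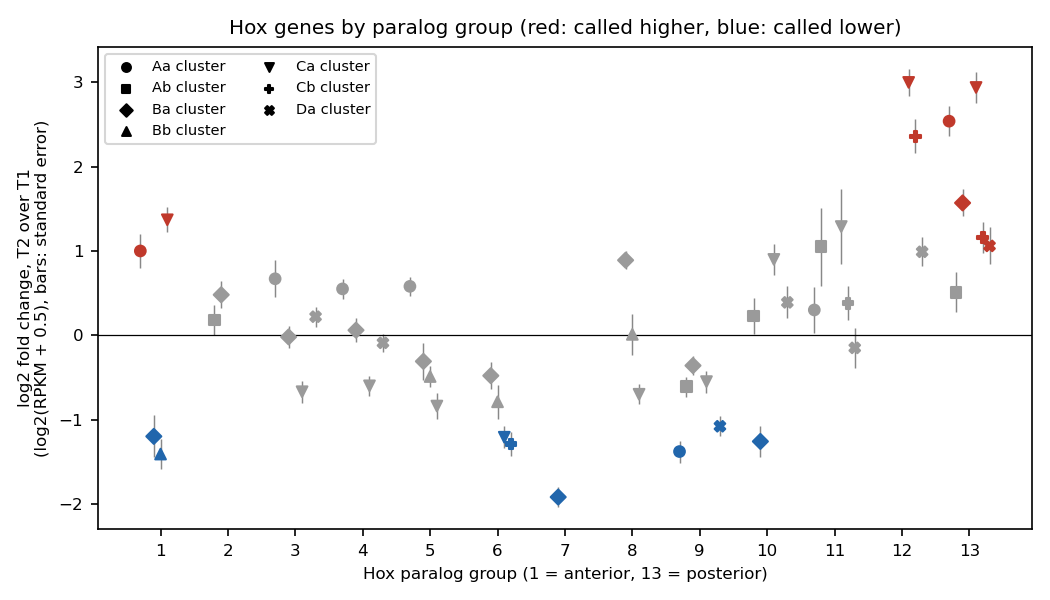
Log2 fold change of T2 over T1 for each tested Hox gene (y axis, log2(RPKM + 0.5) scale, bars are standard errors) by paralog group (x axis, 1 anterior to 13 posterior), with a symbol for each cluster, red where called higher and blue where called lower. Groups 11 to 13 reach 3.0 and hold 7 of the 9 rises, and groups 5 to 10 hold 6 of the 8 falls.

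Of 47 clock, stress and p53 genes 5 rose (10.6%, beside 12.1% of all genes) and 3 fell (6.38%, beside 3.29%), and 11 and 8 were higher without T1 replicate 1 and without T1 replicate 2. All 5 rises belong to the circadian clock. The repressor *per1b* went from 0.639 and 0.313 RPKM to 8.36 and 5.86 (log2 fold change 2.96, SE 0.26, limma adjusted *p* = 0.00313), and *per2*, *per3*, *cry1aa* and *bhlhe40* rose with log2 fold changes of 1.56, 1.24, 1.56 and 1.96. The clock repressor *bhlhe41* fell from 2.48 and 3.79 to 1.24 and 1.06 RPKM, a log2 fold change of −1.11 that was −0.85 without T1 replicate 2. According to its methods, the study kept the fish on a light and dark cycle and removed the baffles between mates in the morning. No source read here gives the clock time of collection. Stage and time of day cannot be told apart for these genes. Of 26 cathepsins and yolk lysosome genes 4 rose (15.4%) and 3 fell (11.5%), beside 12.1% and 3.29% of all genes. The protease genes *ctsc*, from 161 and 199 to 29.3 and 27.5 RPKM, and *ctsll*, from 142 and 144 to 36.9 and 28.9, were among the falls, and *ctslb*, a hatching gland gene, rose from 70.8 and 58.6 to 129 and 148 (log2 fold change 1.09, and 0.96 without T1 replicate 2).

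Related gene pairs set 1 form of early or general use beside 1 of differentiated tissue or the later embryo. The pairs were written with earlier results of these data known, so their tally is a description. Of 36 pairs, 32 had both members tested. The later form had the larger log2 fold change in 24, and the median difference was 1.0. The later form rose in 19 and fell in 1, the early form rose in 8 and fell in 4, and in 10 the later form rose while the early form was not called. The aldolase *aldoab* went from 0.82 and 0.322 RPKM to 60.9 and 73 (log2 fold change 6.01, SE 0.26, limma adjusted *p* = 0.000804), while *aldoaa* was at 88.6 and 85.2 at T1 and 71.1 and 59.4 at T2. The 2 forms were thus far apart at T1 and at like levels at T2. *pgam2* rose from 0.63 and 0.412 to 12.5 and 16.1 RPKM, and *pgam1a* stayed between 6.51 and 7.41. In 2 pairs the early form fell and the later form rose, *dnmt3bb.2* with *dnmt3aa* and the germ cell gene *nanos3* (log2 fold change −1.02, and −0.73 without T1 replicate 2) with *nanos1* (1.46). In 8 pairs the early form had the larger log2 fold change. The difference was greatest for the sodium pump subunits *atp1b1b*, written as the early form (log2 fold change 4.94), and *atp1b2b* (0.20). The next were the enolases, where *eno1a*, also written as the early form, rose more (0.275 and 0.12 to 5.45 and 5.97 RPKM) than the muscle form *eno3* (23.2 and 18.7 to 80.6 and 85.4).

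**Figure D4:**
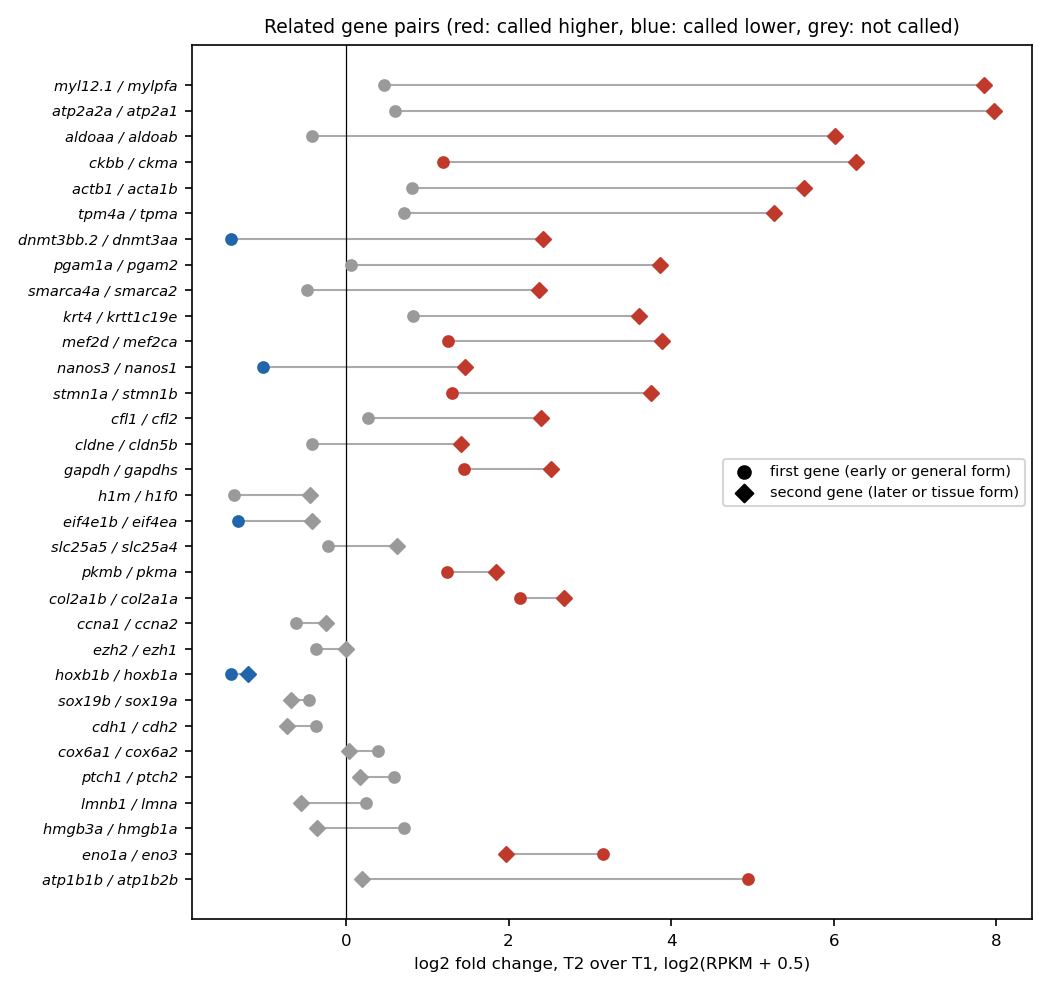
Log2 fold changes of both members of 32 related gene pairs (x axis, log2(RPKM + 0.5) scale), circles for the early or general form and diamonds for the later or tissue form, red where called higher, blue where called lower and grey where not called. The diamond lies to the right of the circle in 24 pairs and to its left in 8.

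Of the lncRNA features tested, 7979 in number, 782 (9.8%) rose and 239 (3%) fell. Rises made up 76.6% of the calls, and 63.7% after quantile normalization. Both counts were larger without T1 replicate 1 and smaller without T1 replicate 2. Without either T2 library no lncRNA passed the adjusted p, while 930 and 782 were higher and 321 and 259 lower at unadjusted p under 0.05. Of 5919 assembled transcripts (TCONS identifiers) 692 (11.7%) rose and 214 (3.62%) fell, and of 2060 annotated lncRNAs 90 (4.37%) rose and 25 (1.21%) fell, together 5.58%. Calls were of low abundance. The median RPKM at the higher stage was 2.13 for assembled transcripts that rose and 3.33 for those that fell, against 3.72 and 8.45 for the genes outside the lncRNA table, of which 2935 (12.7%) rose and 781 (3.39%) fell. The lncRNA table may be scaled differently from the gene table, so these levels are set side by side only. Several transcripts of 1 locus can be counted here, and with 1 transcript for each locus 516 rose and 156 fell.

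The largest rise was that of TCONS_00083069, 2 exons on chromosome 20 at 12283109 to 12381294 (GRCz11, as for all positions below), from 1.15 and 0.677 RPKM to 81.5 and 69.8 (log2 fold change 5.77, SE 0.24, limma adjusted *p* = 0.00958). On chromosome 13 the overlapping, oppositely oriented TCONS_00058330 and LOC110440174 rose from 2.63 and 1.77 to 103 and 139 and from 3.54 and 2.13 to 109.6 and 159 RPKM. LOC110439264 on chromosome 3 (36063470 to 36069293), within the *rab11fip4a* locus, went from 0.427 and 0.431 to 33.6 and 34.2 RPKM (log2 fold change 5.21, SE 0.17). The largest falls were those of TCONS_00089228 on chromosome 21 (7986027 to 7992006), from 9.11 and 12 to 0.356 and 0.226 RPKM (log2 fold change −3.80, SE 0.24, limma adjusted *p* = 0.00971), and TCONS_00005124 on chromosome 2 (26021298 to 26024579), from 3.48 and 9.41 to 0.0513 and 0.0223. The annotated LOC108191631 on chromosome 11, 5276 bp from *wnt4a*, fell from 9.96 and 13.4 to 1.78 and 1.49 RPKM.

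Assembled transcripts with an exon antisense to an exon of a tested gene numbered 827, over 631 partner genes, and in 644 of these pairs neither member was called. Of the transcripts 117 were called, where 15.3% of all tested assembled transcripts were, and 116 of the 117 had the sign of their partner. Both rose in 67 pairs and both fell in 26, and in the other 24 the partner was not called. No pair was called in opposite directions. Over all 827, called or not, 718 had the same sign. The library kit marks the strand. No source read here states that the counting kept it, and without strand the reads of both members of such a pair cannot be told apart. TCONS_00012418, antisense to *hoxb7a* on chromosome 3, fell from 49 and 60.2 to 10.5 and 10.3 RPKM, and TCONS_00041925, antisense to *nr6a1a* on chromosome 8, from 5.66 and 11.9 to 0.587 and 0.678. The only called transcript of the 117 without the sign of its partner was TCONS_00059616. It fell from 7.73 and 21.2 to 1.31 and 1.05 RPKM (log2 fold change −3.0). Its partner *srfb*, the serum response factor gene on the other strand, was at 58.6 and 84.2 at T1 and 102 and 99.5 at T2 (0.52, SE 0.19, not called). Without T1 replicate 2 the number of pairs that moved together was 52 in place of 93. Where the starts of a transcript and a gene on the opposite strand lay within 1 kb without overlapping exons, 15 of 87 transcripts were called. This is near the 15.3% of all tested assembled transcripts. Of the 15, 11 had the sign of the neighbour, and over all 87, called or not, 59 did. The annotated LOC103909137, antisense to *mef2aa* on chromosome 18 (23186724 to 23190908), rose from 0.0752 and 0 to 5.11 and 6.01 RPKM (log2 fold change 3.50).

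Of the genes and lncRNAs that the study followed over the stages by quantitative PCR, 13 are counted here, without its knockout target and the genes near that target. The study chose them on these samples, so their directions are no independent evidence. Of these 13, 9 rose and 1 fell, beside 12.1% and 3.29% of all genes. Among the rises were LOC101885256 (0.347 and 0.998 RPKM at T2) and LOC101884456 (0.915 and 0.659), both listed at 0 at T1. Both lost their call with a pseudocount of 1 (log2 fold changes 0.71 and 0.83), and LOC101885256 also after quantile normalization (0.97). The slow muscle troponin I gene *tnni1al*, the parvalbumin *pvalb4* and the lncRNA LOC108179067 were listed at 0 in both T1 libraries and at 13.8 and 15.4, 8.29 and 11.2, and 3.42 and 4.1 RPKM at T2. The smoothelin-like gene *smtnl1* rose from 1.71 and 0.358 to 71.1 and 61.5 RPKM. The fall of LOC103910859 on chromosome 4, from 1.62 and 5.26 to 0 and 0.534 RPKM, was called in the gene table (limma adjusted *p* = 0.0397) and neither in the lncRNA table (limma adjusted *p* = 0.0721) nor with voom on recovered reads (adjusted *p* = 0.0678).

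On chromosome 4 the shares of called genes from 30 Mb on lay outside the range of the other nuclear chromosomes. No test was made of this difference. From 30 Mb to its end 8 of 1004 tested genes rose (0.797%) and 81 fell (8.07%), with a median log2 fold change of −0.28. In the last stretch of this region, from 70 Mb on, 5 of 257 rose (1.95%) and 7 fell (2.72%). Before 30 Mb 79 of 697 rose (11.3%) and 19 fell (2.73%). Over the other nuclear chromosomes 12.9% of 22428 genes rose and 3.07% fell, and single chromosomes ranged from 8.58% to 15.7% and from 1.81% to 4.88%. Of 39 genes of the mitochondrial genome, left out of that range, 0 rose and 4 fell (10.3%). The count of falls from 30 Mb on was 143 without T1 replicate 1, 212 after quantile normalization, and 32 with a pseudocount of 1. Of the 81 genes 57 were higher in T1 replicate 2 than in T1 replicate 1, and their median level went from 3.3 to 1.15 RPKM. A LOC or number identifier stood for 65 of them, and 9 were named as zinc finger genes. The long arm of zebrafish chromosome 4 is known for many near-identical gene copies, so reads may be split among them. Among lncRNA features of the same region, 25 of 650 fell (3.85%) and 9 rose (1.38%), beside 3% and 9.8% of all tested lncRNA features. The share of falls was thus near that of all lncRNA features, and the share of rises was below it. The median log2 fold change of these 650 features was −0.40, beside 0.08 over all tested lncRNA features.

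**Figure D5:**
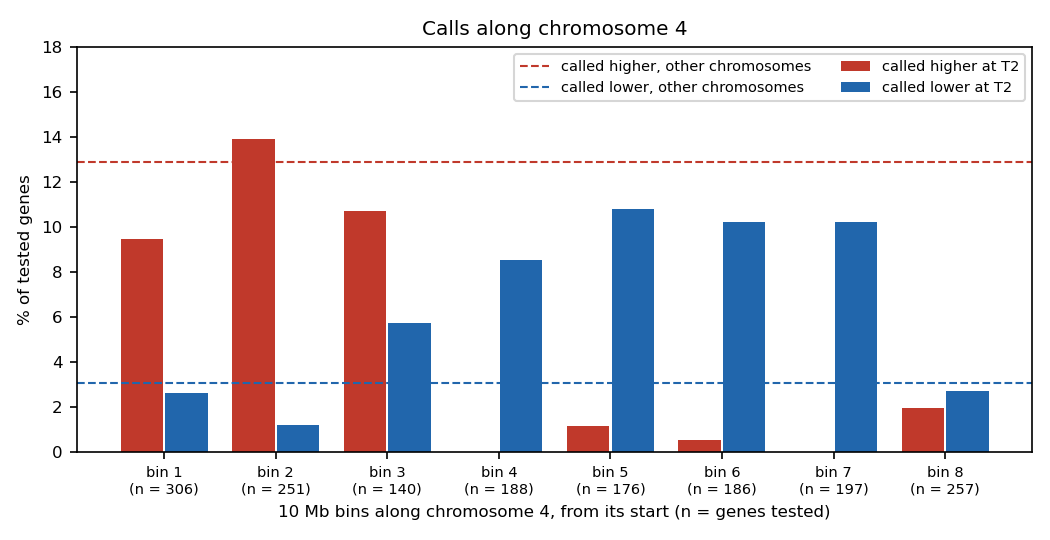
Share of tested genes called higher (red) and lower (blue) at T2 in successive 10 Mb bins of chromosome 4 (y axis in %), with the shares on the other chromosomes as dashed lines at 12.9% and 3.07%. From the fourth bin on the red bars are at or below 1.95%. The blue bars of the fourth to seventh bins lie between 8.51% and 10.8%, and that of the last bin is at 2.72%.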

How the data were processed

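Total RNA of WT AB embryos, 2 libraries at 10 hpf and 2 at 24 hpf, was depleted of rRNA and sequenced with a stranded kit. The authors aligned reads to GRCz11 with STAR, counted them with featureCounts and deposited RPKM values for 30111 genes and 9029 lncRNA features, of which 3093 stand in both tables. How the TCONS transcripts were assembled and scaled was not given in the sources used here. Columns were assigned by sample title, and 0 were left over. The RPKM of the gene table came out as whole reads for 100% of values (within 0.01 reads), and those of the lncRNA table for 51.3% to 53%.

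Features of at least 0.1 RPKM in at least 2 of the 4 libraries were fitted on log2(RPKM + 0.5) with limma 3.58.1 (lmFit, contrasts.fit, eBayes with trend and robust through statmod 1.5.0, R 4.3.3), each table on its own, with stage as the only term. Tables and plots were made in Python 3.11.15 with pandas 2.3.3, numpy 2.4.6 and matplotlib 3.10.9. Count models were not the main test because the deposited unit is RPKM. The test was checked on simulated data. Lists hold 1547 symbols, of which 1463 matched exactly, 31 through a synonym, 35 were not found and 18 repeated a member. The members, lists and pairs were chosen with earlier results of these data known. Genes were named by their rank among calls (the 12 largest rises and falls), by rank within a list (up to 4, with up to 2 against its direction and the first 2 written), as pair members, as the largest lncRNA changes (8 assembled and 5 annotated in each direction), or as genes of the qPCR panels, and some of these are not reported here. Others were named after their values were seen. Alternatives were other pseudocounts, filters, scalings, thresholds, fits and single libraries left out. Fold changes and p-values of the authors were not used. No sequences are printed.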

Additional observations from a re-analysis of the deposited data

How the results depend on the processing

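Among the fits with 1 library left out, the number of calls changed most without a T2 library. The 3863 calls among genes (3038 higher, 825 lower) ran from 0 to 4860 when 1 library was left out (0 to 3616 and 0 to 1244), the 1021 among lncRNAs from 0 to 1643 (0 to 1070 and 0 to 573), the 519 list members called from 0 to 587, the 81 falls of chromosome 4 from 30 Mb on from 0 to 143, and the 93 lncRNA and antisense pairs from 0 to 123. Each 0 came from leaving out a T2 library. At unadjusted p under 0.05, a choice made after seeing the data, leaving out T1 replicate 1 gave 1256 genes lower, 144 of them in that part of chromosome 4, and 2007 lncRNAs called (1296 higher, 711 lower), and leaving out T1 replicate 2 gave 427 lncRNAs lower. Of 230 named genes that were called, 222 and 220 kept an unadjusted p under 0.05 and the fold without T2 replicate 1 and 2. Limma voom on recovered reads called 5923 genes (4645 higher, 1278 lower), and 98.1% of the calls above were among them. It called 158 falls in that part of chromosome 4. With no fold threshold 8634 genes passed (5446 higher, 3188 lower), and with a threshold of 2 on the log2 scale 1104 genes (970, 134) and 290 lncRNAs (235, 55). A pseudocount of 0.1 gave 1272 genes lower, 146 of them on chromosome 4 from 30 Mb on. A pseudocount of 1 gave 32 there and 57 pairs. Quantile normalization gave 1474 genes and 362 lncRNAs lower and 212 falls on chromosome 4 from 30 Mb on. All 6 libraries in the fit gave 363 lncRNAs lower, an unadjusted p 423, and 1 transcript for each locus 672 calls (516, 156). The causes of these shifts were not tested. Other counts over the 2 tables, the lists together, the pairs and that part of chromosome 4 stayed within 1.5 times, and no named result changed its direction. Of the 230 named genes 15 lost their call with a pseudocount of 1 and 9 after quantile normalization.

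With the replicate number as a block, 3134 genes were higher and 894 lower, and 666 and 181 lncRNAs. Same-numbered libraries of T1 and T2 deviated together with r = 0.0664 across 15079 genes, so the numbers were not read as a pairing of samples. In simulated data 92% of genes changed by 1.5 on the log2 scale and 52% of lncRNAs were called, and 100% and 96% at 3, so smaller changes of lncRNAs were often not detectable.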

Other observations

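Some genes were near the floor at one stage only. Under 0.1 RPKM in both T1 libraries and at least 1 RPKM in both T2 libraries were 159 genes, of which 18 were listed at 0 in both T1 libraries. The opposite held for 7 genes. Among these 7 were *six7*, a homeobox gene of the anterior neural plate, at 4.46 and 8.27 RPKM at T1 and 0.0309 and 0.0104 at T2, and *dand5*, an antagonist of Nodal at the left-right organiser, at 3.17 and 1.29 and then 0.0635 and 0. Among lncRNA features 99 were in the first class and 6 in the second.

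Loci of microRNA genes, where reads can come from precursor transcripts, held 40 rises (21.2%) and 7 falls (3.7%) among 189 tested. Of all genes 12.1% rose and 3.29% fell. On a locus shorter than 1 kb, 3 reads are worth more RPKM than the floor given above, so calls at low levels may rest on few reads. Examples are the fall of *mir212* (0.732 and 0.705 RPKM at T1, listed at 0 in both T2 libraries) and the rise of *mir125c* (0 and 0, then 0.481 and 0.731). The muscle locus *mir1-1* went from 0.433 and 0.208 RPKM to 107 and 98.9 (log2 fold change 6.99, SE 0.17, limma adjusted *p* = 0.000306). The locus *mir133a-2* was listed at 0 in both T1 libraries and at 7.54 and 4.69 RPKM at T2. *mir202*, known from the gonad, was at 2.72 and 3.78 RPKM at T1 and listed at 0 in both T2 libraries.

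Genes with many exons rose more often. Of genes with 16 to 297 exons 17.1% rose and 2.3% fell, and of those with 1 to 3 exons 9.34% rose and 4.97% fell. By mean level over the 4 libraries, 8.13% of genes under 1 RPKM rose and 0.949% fell. Of those of 1 to 10 RPKM 17.4% rose and 4.64% fell, and of those of 10 to 100 RPKM 9.47% and 5%. Of those of 100 RPKM or more 6.32% rose and 4.41% fell. These shares are a description and were not tested.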
